A study of Mus musculus with 2 samples.

Results

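The genes described here are 9 genes of glycolysis, which encode a glucose carrier and isoenzymes of several steps: *Slc2a1*, *Hk1*, *Hk2*, *Pfkp*, *Pfkl*, *Aldoa*, *Eno1*, *Ldha* and *Ldhb*. They were taken by gene name from the arrays of control and *Drp1*LiKO hepatocytes, with every probe of each gene. They make up 9 of 37074 gene names and 23 of 56605 probes on the array. All 9 were among the 20165 genes with a probe well above background on at least 1 array.

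Drp1, encoded by *Dnm1l*, is the GTPase that divides mitochondria. RNA came from primary mouse hepatocytes on a C57BL/6 background, with 1 array for control cells (*Drp1* flox/flox littermates, labeled as wild type) and 1 for *Drp1*LiKO cells, which carried the *Alb-Cre* transgene (Tg/+) beside *Drp1* flox/flox. Both genotypes therefore carried the floxed alleles. The albumin promoter directs Cre to hepatocytes, so that macrophages, endothelial cells and stellate cells in a culture would keep *Drp1*. Cells were seeded after collagenase perfusion and a slow spin, in medium with 4500 mg/L glucose, 1 µM insulin and 10% serum, and harvested at 24 h. No other treatment is labeled for these samples, and the age and number of mice behind each array are not given in the sources used here. With 1 array per genotype no test was made and each difference describes these 2 arrays, whose number sets the limit of precision.

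Glycolysis breaks glucose down to pyruvate in the cytosol, and lactate dehydrogenase converts pyruvate and lactate into each other. Several steps are run by different isoenzymes in different tissues. The adult liver relies on the carrier GLUT2 (*Slc2a2*) and liver phosphofructokinase (*Pfkl*), among forms that suit an organ that both stores and releases glucose. Most other cells, and many proliferating or dedifferentiating ones, use GLUT1 (*Slc2a1*), hexokinases 1 and 2 (*Hk1*, *Hk2*), platelet phosphofructokinase (*Pfkp*) and aldolase A (*Aldoa*).

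Each probe is a DNA strand of 60 bases, and the ratio of a gene rests on where its probe lies. The first 30 bases of 8 probes, from the deposited files and written from their 5′ end, are shown because the main differences rest on them. No part is set in capitals, since no part of a probe was singled out. Each probe is named by its gene and the transcript it was designed on.
*Slc2a1* NM_011400: acccacttgtaaatacaccaacaaactcct
*Hk1* NM_001146100: ggaatctcccatcgctttagtgagccattg
*Hk2* NM_013820: tagtgagcgttttgtcatcatgtacagtag
*Pfkp* NM_001291071: ttttgtaacatagttatttatcagcacttt
*Pfkp* NM_019703: caaactgaaggggtcccagggcacagggaa
*Pfkp* XM_006516488: cgaaagatccaaggcaaacaaaacatccaa
*Pfkl* NM_008826: ccgcaccttgagcatagacaagggtttctg
*Ldhb* NM_008492: atgtaggtcacagtttgcttcttccctgac

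Signals were scaled to the 75th percentile of each array, which was 313 in the control and 356 in the *Drp1*LiKO culture. An unscaled signal equal on both arrays thus gives a log2 ratio (*Drp1*LiKO minus control) of -0.18. The Z score sets a log2 ratio against those of all detected probes, as its distance from their mean in units of their SD (0.65). "Rose" and "fell" are used of a Z score of at least 2 or at most -2, which is 2.46-fold higher or 2.48-fold lower, and a difference of over 1.5-fold is given as a milder rule. Noise is the SD of a ratio expected between single spots of similar signal, from 300 probes printed 10 times on each array. It covers the array surface only, not separate cultures or mice. As a check of the labels, *Dnm1l* (NM_001276340, chr16:16312363-16312422 of mm9) had a signal of 2602 in control cells against 1217 in *Drp1*LiKO cells. Its log2 ratio was -1.28 (noise 0.11), lower by 2.43-fold, with a Z score of -1.95, just short of -2. The other detected *Dnm1l* probe (BC027538) was near background, at 22.8 and 20.9, with a log2 ratio of -0.31 (noise 0.37). Whether either probe lies in the deleted exons is not given in the sources used here.

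Taken by the brightest probe of each gene, the members went both ways and none passed a Z score of 2 or -2. *Pfkp* and *Slc2a1* were higher in *Drp1*LiKO cells by over 1.5-fold, *Hk2* stood just short of that, and *Ldhb* was lower by over 1.5-fold. The remaining 5 genes lay closer to 0. Over all genes 3.5% were called higher and 2.81% lower at this Z score, and 10.3% were over 1.5-fold higher and 10.3% over 1.5-fold lower. The median log2 ratio of the members was -0.15, beside -0.05 over all genes, with 4 members above 0 and 5 below.

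This count depended on *Hk1*. Its brightest probe shares a long stretch with a probe of another gene, as described below, and its RefSeq probe rose. With each gene taken by its brightest probe for a RefSeq mRNA, 1 member was called higher (*Hk1*) and none lower, against 4.09% and 2.48% of the 13819 genes with such a probe. *Hk1*, *Pfkp* and *Slc2a1*, 3 of the 9, were then higher by over 1.5-fold and *Ldhb* alone was lower, against 10.7% and 9.94% of genes. The median of the members was 0.20 by this rule, beside -0.04 over all genes.

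**Figure D1:**
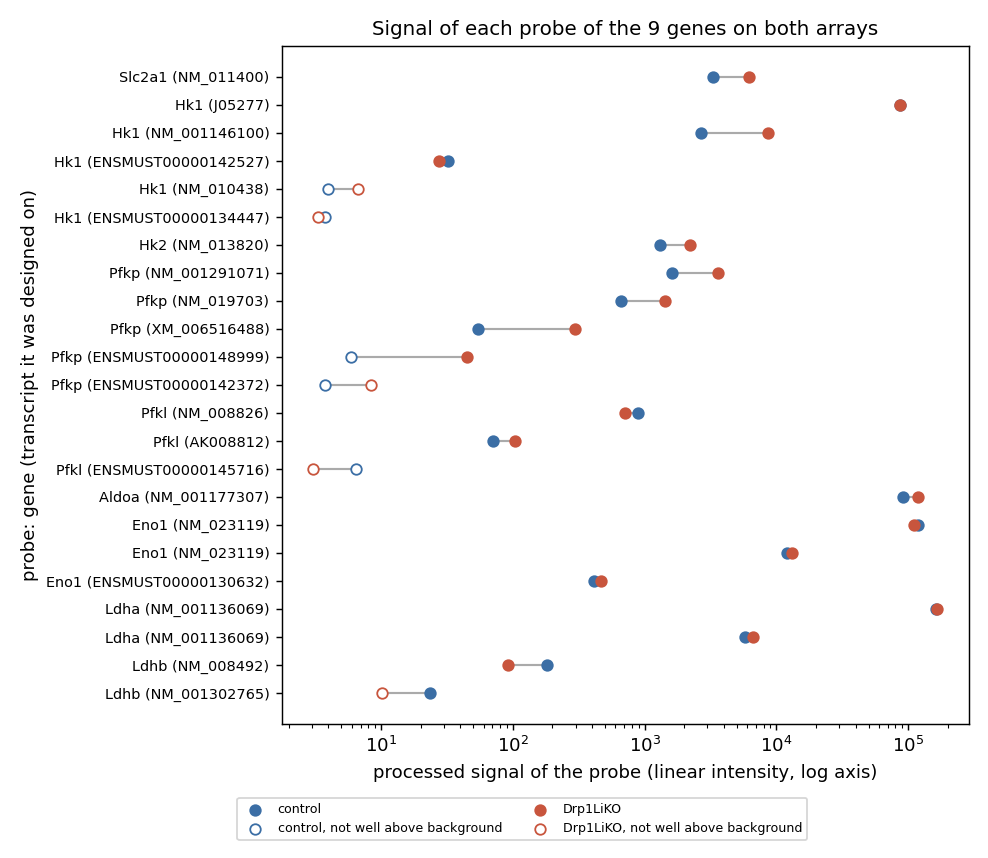
Processed signal (linear intensity on a log axis, before scaling) of all 23 probes of the 9 genes in control (blue) and *Drp1*LiKO (red) cells, 1 array each. Open circles are signals not well above background. *Hk1* NM_001146100 and all *Pfkp* probes lie further right in *Drp1*LiKO cells, both *Ldhb* probes lie further left, and levels of different probes are not comparable.

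*Slc2a1* encodes GLUT1, the carrier that brings glucose into most cells. Its only probe (chr4:118809864-118809923 of mm9) had a signal of 3306 in the control and 6174 in the *Drp1*LiKO culture. It was higher in *Drp1*LiKO cells by 1.65-fold, a log2 ratio of 0.72 (noise 0.093) and a Z score of 1.11. Of all genes, 91.9% had a lower ratio.

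*Hk1* encodes the hexokinase found in nearly every tissue, which phosphorylates glucose at the outer mitochondrial membrane. The probe on RefSeq mRNA NM_001146100 (chr10:61731856-61731915 of mm9) had a signal of 2663 in control cells against 8704 in *Drp1*LiKO cells. It rose by 2.88-fold, a log2 ratio of 1.53 (noise 0.095) and a Z score of 2.35. The probe with the brightest signal, designed on the GenBank mRNA J05277 (chr10:61731230-61731288 of mm9), gave 86859 in the control and 87026 in the *Drp1*LiKO culture. Its log2 ratio was -0.18 (noise 0.05), that of an unchanged unscaled signal.

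These *Hk1* probes lie within 1 kb of each other in the genome and differ by more than the noise between spots. The J05277 probe shares an unbroken run of 38 of its 60 bases with a probe listed as *Rpl17-ps8*, a pseudogene of ribosomal protein L17, on another chromosome. That probe had a signal of 34105 in control cells against 38619 in *Drp1*LiKO cells, with a log2 ratio of -0.00. The J05277 probe also shares 30 bases with an unnamed transcript (NAP111618-1) whose signal was 94982 in the control and 96727 in the *Drp1*LiKO culture, a log2 ratio of -0.16. No run of 20 bases or more of the NM_001146100 probe was found in any probe of another gene. How much of the J05277 signal comes from *Hk1* RNA was not tested.

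A further *Hk1* probe (ENSMUST00000142527) was near background, at 32 in control cells against 27.4 in *Drp1*LiKO cells, with a log2 ratio of -0.41 (noise 0.31). The last 2 *Hk1* probes, NM_010438 and ENSMUST00000134447, were not well above background on either array. *Hk2* encodes the insulin-responsive hexokinase of muscle and fat, which many growing cells also use. Its only probe (chr6:82675056-82675115 of mm9) gave 1315 in the control and 2225 in the *Drp1*LiKO culture. It was higher by 1.49-fold, a log2 ratio of 0.58 (noise 0.11), and so stood just under the 1.5-fold rule.

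*Pfkp* encodes the platelet form of phosphofructokinase, the committed step of glycolysis. All of its 4 detected probes gave higher signals in *Drp1*LiKO cells. The brightest (NM_001291071, chr13:6580589-6580648 of mm9) gave 1601 in control cells against 3576 in *Drp1*LiKO cells, 1.97-fold higher, with a log2 ratio of 0.98 (noise 0.11) and a Z score of 1.51. The probe on NM_019703 spans 2155 bases of the genome, from chr13:6581718-6583872, more than its own length, as a probe across a splice junction does. It gave 663 in the control and 1426 in the *Drp1*LiKO culture, a log2 ratio of 0.92 (noise 0.11). Both RefSeq probes thus had nearly the same ratio.

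The other detected *Pfkp* probes had lower signals. The probe on the predicted transcript XM_006516488 (chr13:6588296-6588355 of mm9) rose from 54.9 in control to 298 in *Drp1*LiKO cells, by 4.78-fold, with a log2 ratio of 2.26 (noise 0.16) and a Z score of 3.47. The probe on ENSMUST00000148999 was well above background only in *Drp1*LiKO cells (45.2, against 5.89 in control), so it was at least 2.19-fold higher. The probe on ENSMUST00000142372 was not well above background on either array. The size of the *Pfkp* difference therefore depended on the probe, and its direction did not.

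*Pfkl* encodes the liver form of the same enzyme. Its brightest probe (NM_008826, chr10:77450926-77450985 of mm9) gave 886 in control cells against 709 in *Drp1*LiKO cells, 1.42-fold lower, with a log2 ratio of -0.50 (noise 0.11). A dimmer probe (AK008812) went the other way, with 70.4 in the control and 104 in the *Drp1*LiKO culture and a log2 ratio of 0.38 (noise 0.25). A probe on ENSMUST00000145716 was not well above background on either array. The direction for *Pfkl* thus rested on which probe was read.

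*Aldoa*, the aldolase of muscle and most other tissues, had 1 probe (NM_001177307, chr7:133938816-133938875 of mm9). It gave 91249 in control cells against 118974 in *Drp1*LiKO cells, with a log2 ratio of 0.20 (noise 0.07). *Eno1*, the enolase of most tissues, had 3 detected probes with log2 ratios from -0.30 to -0.01. The brightest (NM_023119, chr4:149622928-149622987 of mm9) gave 118713 in the control and 109782 in the *Drp1*LiKO culture, a log2 ratio of -0.30 (noise 0.049). It shares 53 bases with a probe of *Eno1b*, a retrotransposed copy, so signals of the gene and its copy cannot be told apart there. The *Eno1b* probe gave 118648 in control cells against 109129 in *Drp1*LiKO cells. The *Eno1* probe across chr4:149618134-149618359 gave 12025 and 13036, a log2 ratio of -0.07 (noise 0.073), and the probe on ENSMUST00000130632 gave 413 and 467, a log2 ratio of -0.01 (noise 0.11). *Aldoa* and *Eno1* thus stayed within 1.5-fold by every detected probe.

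*Ldha* encodes the lactate dehydrogenase subunit of liver and skeletal muscle, and *Ldhb* that of heart. The brightest *Ldha* probe (NM_001136069, chr7:54110937-54110996 of mm9) gave 162845 in the control and 166218 in the *Drp1*LiKO culture, a log2 ratio of -0.15 (noise 0.041). The other *Ldha* probe (chr7:54103010-54103069) gave 5791 and 6610, a log2 ratio of 0.01 (noise 0.093). *Ldha* was therefore within 1.5-fold by both probes.

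*Ldhb* was the member with the lowest ratio, at a low signal. Its brightest probe (NM_008492, chr6:142438829-142438888 of mm9) gave 182 in control cells against 92.8 in *Drp1*LiKO cells, 2.23-fold lower, with a log2 ratio of -1.16 (noise 0.24) and a Z score of -1.76. Of all genes, 3.44% had a lower ratio. The other probe (NM_001302765, spanning chr6:142444206-142447028) was well above background only in control cells, with 23.5 against 10.2, so it was at least 1.78-fold lower.

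**Figure D2:**
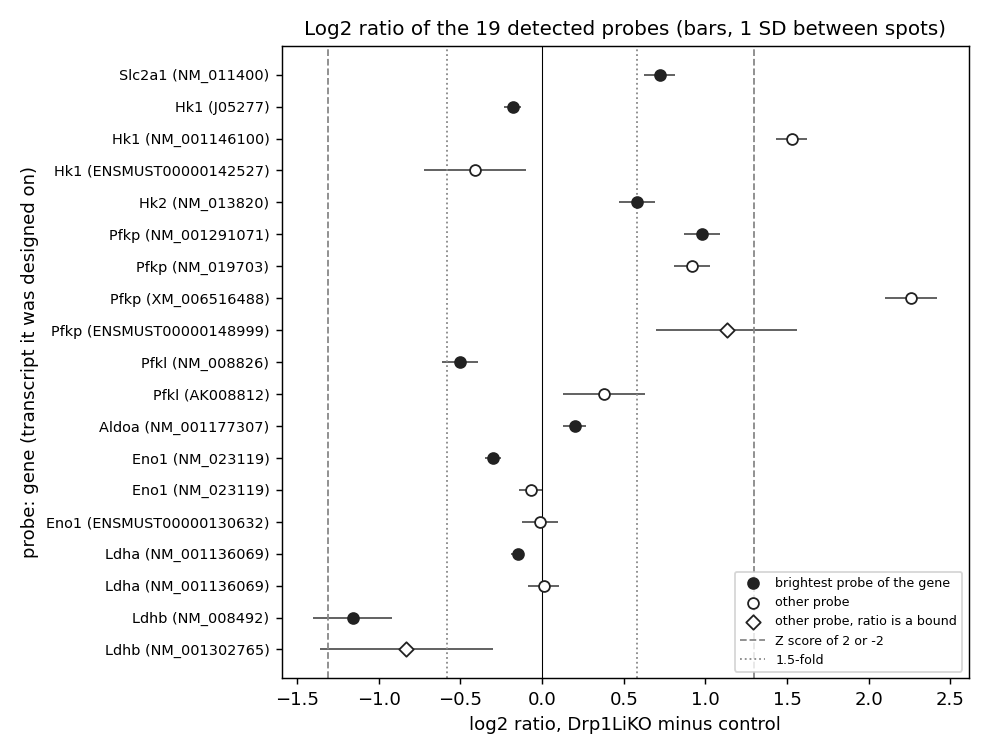
Log2 ratio (*Drp1*LiKO minus control) of the 19 detected probes, by gene and transcript. Bars are 1 SD expected between single spots, dashed lines a Z score of 2 or -2 and dotted lines 1.5-fold. Only *Hk1* NM_001146100 (1.53) and *Pfkp* XM_006516488 (2.26) lie past the dashed lines, diamonds are bounds, and probes of *Hk1*, *Pfkl* and *Ldha* lie on both sides of 0.

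In order of the ratio of the brightest probe, which for *Hk1* is the J05277 probe, the genes ran from *Pfkp* through *Slc2a1*, *Hk2*, *Aldoa*, *Ldha*, *Hk1*, *Eno1* and *Pfkl* to *Ldhb*. *Pfkp*, *Slc2a1* and *Hk2* differed from their neighbors by at most 2 SD of the noise between spots (0.26 and 0.14). So did *Ldha*, *Hk1*, *Eno1* and *Pfkl* in turn. The gaps from *Hk2* to *Aldoa* (0.38), from *Aldoa* to *Ldha* (0.35) and from *Pfkl* to *Ldhb* (0.66) were larger than 2 SD. The members lay on 5 chromosomes, 4 of which held a pair of them.

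Forms of the same step were then set against each other for 4 steps, as differences between their log2 ratios. All 4 differences exceeded 2 SD of the noise between spots. That noise covers the array surface only, and the log2 ratios of all detected probes had an SD of 0.65. How often other pairs of genes differ by as much was not tested. For lactate dehydrogenase, *Ldhb* was 1.01 below *Ldha* (difference -1.01, noise 0.24). For phosphofructokinase, *Pfkp* was 1.48 above *Pfkl* by their brightest probes (noise 0.16) and 0.60 above it by the other detected *Pfkl* probe (noise 0.27).

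*Eno3*, the muscle enolase, gave 650 in control cells against 466 in *Drp1*LiKO cells, 1.58-fold lower (log2 ratio -0.66), and the ratio of *Eno1* was 0.36 above it (noise 0.12). The carrier GLUT2 (*Slc2a2*) was near background, at 46.5 in the control and 54.8 in the *Drp1*LiKO culture (log2 ratio 0.06, noise 0.26). *Slc2a1* was 0.66 above it (noise 0.27). The liver form of the carrier was thus read at a low signal in both cultures.

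**Figure D3:**
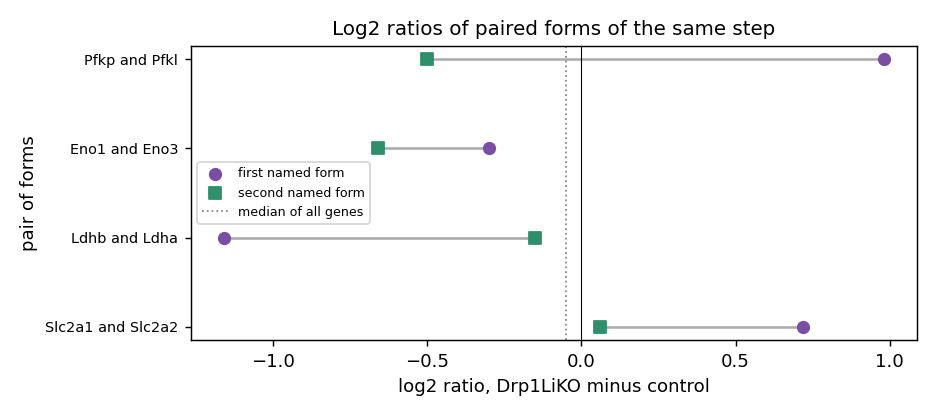
Log2 ratio (*Drp1*LiKO minus control) of the forms of each step, joined by a line, by the brightest probe of each gene. The dotted line is the median of all genes (-0.05). The first named form (circle) lies right of the second (square) in each pair but *Ldhb* and *Ldha*.

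Of 16 detected genes reported here for the other steps and isoenzymes of glycolysis, 2 rose and none of the 16 fell, and the median log2 ratio was -0.04. Both that rose were hexokinases. *Hkdc1*, a hexokinase-like gene, rose from 226 in control to 1014 in *Drp1*LiKO cells (log2 ratio 1.98, noise 0.13). *Hk3*, the hexokinase of blood leukocytes, rose from 42 to 158 (log2 ratio 1.73, noise 0.21), and its other probe on the same mRNA gave 11.5, not well above background, and 29.5. Of the 10 detected genes of sugar and lactate transport none rose by the brightest probe and 1 fell, the fructose carrier *Slc2a5*, from 101 to 35.6 (log2 ratio -1.69, noise 0.27), with a median of -0.12. *Slc2a3* and *Slc2a4*, the carriers of neurons and of muscle and fat, were not well above background on either array.

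Phosphofructokinase is switched on by a small sugar phosphate that the *Pfkfb* enzymes make and break. Of the 5 genes of that list, which includes *Tigar*, *Pfkfb4* rose, from 68.0 in control to 429 in *Drp1*LiKO cells (5.57-fold, log2 ratio 2.48, noise 0.16), and none fell, with a median of 0.27. The other *Pfkfb4* probe, on the same mRNA (NM_173019), gave 4.4 and 3.58, not well above background on either array. Of 13 genes for entry of pyruvate into mitochondria, *Pdk4*, a kinase that shuts off pyruvate dehydrogenase, rose from 144 to 539 (log2 ratio 1.72, noise 0.14) and none fell. Their median was 0.03. The rest of these lists lay mostly near the median of all genes.

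Among 17 detected regulators of glycolytic genes 1 rose, *Ppargc1a*, the coactivator of mitochondrial biogenesis and gluconeogenesis, from 133 to 489 (log2 ratio 1.69, noise 0.14). None fell, and the median was -0.04. The only other regulator over 1.5-fold higher was *Hif1a*, the oxygen-regulated factor, with 3758 in the control and 7096 in the *Drp1*LiKO culture (log2 ratio 0.73, Z score 1.14), named here after its value was seen. Among 15 detected targets of HIF outside the members 1 rose, *Adm* (adrenomedullin), from 503 to 2129 (log2 ratio 1.90, noise 0.11), and none fell, with a median of 0.14. By the 1.5-fold rule 3 of the 15 were higher and none lower, against 10.3% each way over all genes.

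HIF binds a short core, ACGTG or GCGTG, and both were searched on both strands (reverse CACGT and CACGC) in the 250 bases before the annotated starts of the members, from RefSeq on GRCm38.p6. Either core stood in 13 of 15 windows, with at least 1 such window for each of the 9 genes, and in 38.6% of all 32851 windows. The windows of a gene can overlap, so that 1 match of *Aldoa* and 2 of *Eno1* are each counted in 2 windows. The form ACGTG stood in 5 windows of 4 genes (*Aldoa*, *Hk2*, *Ldha*, *Slc2a1*), against 16.6% of all windows, and GCGTG in 9 windows of 7 genes, against 28.2%. The members' windows held 49.6% to 71.2% G and C, beside a median of 52.4% over all windows, and the part of base composition in these shares was not tested. *Ldha* held ACGTG at 3 places in 1 window, of which 2 are the palindrome CACGTG, found in 6.02% of all windows, and *Pfkp* held GCGTG at 3 places. The windows of *Slc2a1* (chr4:119108495-119108744, plus strand), *Pfkp* (chr13:6648772-6649021, minus strand) and *Ldha* (chr7:46845554-46845803, plus strand) are shown as a pair of genes that were over 1.5-fold higher and a gene that was not, with matches in capitals.
*Slc2a1* promoter: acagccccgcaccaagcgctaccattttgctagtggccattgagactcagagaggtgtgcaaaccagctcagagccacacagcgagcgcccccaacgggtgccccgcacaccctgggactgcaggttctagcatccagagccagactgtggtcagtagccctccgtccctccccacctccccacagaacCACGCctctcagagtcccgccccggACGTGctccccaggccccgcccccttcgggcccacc
*Pfkp* promoter: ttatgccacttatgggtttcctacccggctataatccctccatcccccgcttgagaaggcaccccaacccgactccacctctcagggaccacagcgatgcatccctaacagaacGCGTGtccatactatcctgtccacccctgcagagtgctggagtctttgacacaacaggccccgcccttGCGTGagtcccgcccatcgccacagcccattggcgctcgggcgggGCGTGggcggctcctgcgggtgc
*Ldha* promoter: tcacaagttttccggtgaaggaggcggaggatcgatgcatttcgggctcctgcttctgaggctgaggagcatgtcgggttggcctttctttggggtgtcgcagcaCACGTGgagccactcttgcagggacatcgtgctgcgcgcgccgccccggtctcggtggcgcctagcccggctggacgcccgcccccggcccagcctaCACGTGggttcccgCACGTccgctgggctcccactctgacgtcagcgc
A match is a description of the letters only.

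The cultures also differed in RNA of other liver cells. Of 16 detected markers of Kupffer cells and macrophages, 11 rose in *Drp1*LiKO cells and none fell, with a median log2 ratio of 2.28. Of the 16, 4 were well above background, and so detected, only in *Drp1*LiKO cells. *Clec4f* and *Vsig4*, which rose, are among these bounds, and the median without bounds was 2.43. The summed signal of the 16, each divided by the 75th percentile of its array, was 49.3 in control cells against 97.2 in *Drp1*LiKO cells. Without *Cd14* it was 28.8 and 73.5. *Marco*, named after its value was seen, had the highest ratio of these markers (50.7 and 628, log2 ratio 3.45). The brightest in control cells, *Cd14* (6407 and 8419, log2 ratio 0.21) and *Itgam* (4132 and 3869, log2 ratio -0.28), did not pass, and *Timd4* and *Cd163* were not well above background on either array. The other *Itgam* probe (NM_008401) gave 13.2 and 9.15, not well above background on either array. Of 12 detected endothelial markers 7 rose, with a median of 1.46 and sums of 15.1 and 28.1, or 3.1 and 8.54 without *Egfl7*. Of the 12, 3 were well above background only in *Drp1*LiKO cells. *Lyve1* and *Tie1*, which rose, are among these bounds, and the median without bounds was 1.44. The brightest endothelial markers were *Egfl7* (3773 and 6941, log2 ratio 0.70) and *Stab1* (337 and 664, log2 ratio 0.80), and *Vwf* was not well above background.

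Of 10 detected stellate cell markers 5 rose, with a median of 1.45 and sums of 70.3 and 85.0, or 1.86 and 15.8 without *Acta2*. Of the 10, 5 were well above background only in *Drp1*LiKO cells. *Lum*, *Col3a1* and *Pdgfrb*, which rose, are among these bounds, and the median without bounds was 1.04. The detected probes of *Acta2*, all on NM_007392, disagreed. The brightest gave 21437 in the control and 24640 in the *Drp1*LiKO culture (log2 ratio 0.02), another rose from 283 to 1474 (log2 ratio 2.20, Z score 3.38), and another was well above background only in *Drp1*LiKO cells (4 and 38, at least 1.84-fold higher). *Dcn* rose from 203 to 3848 (log2 ratio 4.06), and *Lrat* was not well above background. None of the 4 detected cholangiocyte markers passed either way, with sums of 93.8 and 70.0 (*Spp1* 24719 and 20346, *Krt19* 4049 and 3482). Erythroid markers (3 detected of 6, sums 3.31 and 3.56, *Alas2* 929 and 1176, *Hba-a1* 88.9 and 69.1) and lymphocyte markers (2 detected of 10, sums 0.858 and 0.666, *Cd3e* 251 and 220, *Ms4a1* 3.91 and 16.9) did not pass either. Of neutrophil markers 2 of 7 were detected (sums 2.09 and 1.97), *Elane* at 635 and 623, and *Ly6g*, which rose from 17.5, not well above background, to 76.9, at least 3.72-fold, while *S100a8* and *S100a9* were not well above background.

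Of 17 hepatocyte markers on the array 16 were detected, with 15 well above background on each array. Only *Cyp7a1* was not well above background on either array. By the same rule 16 of 18 macrophage, 12 of 13 endothelial and 10 of 11 stellate markers were detected. Detection alone therefore does not tell the main cell type of a culture. The summed scaled signal of the hepatocyte markers was 2146 in control cells against 2187 in *Drp1*LiKO cells. Without *Serpina1a* it was 1065 and 1233. The gluconeogenic *G6pc* (27.3 and 14.1) and *Pck1* (11.7 and 40.2) were each well above background on 1 array only. The brightest were *Serpina1a* (338486 and 339334, log2 ratio -0.18) and *Alb* (219613 and 266703, log2 ratio 0.10). The 2 that rose, *Ahsg* and *Cyp3a11*, with log2 ratios of 1.83 and 2.03, are named after their values were seen. So is *Cyp2e1*, which was lower by both probes (12679 and 8360, log2 ratio -0.78, and 3027 and 1616, log2 ratio -1.09). By the 1.5-fold rule 5 of the 16 hepatocyte markers were higher and 2 lower, against 10.3% each way over all genes. *Hk1*, *Pfkp* and *Slc2a1* are forms that macrophages, endothelial cells and stellate cells use too, and the part of these cells in the ratios of the members was not tested. In bulk RNA, fewer cells of a type and less RNA per cell cannot be told apart.

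**Figure D4:**
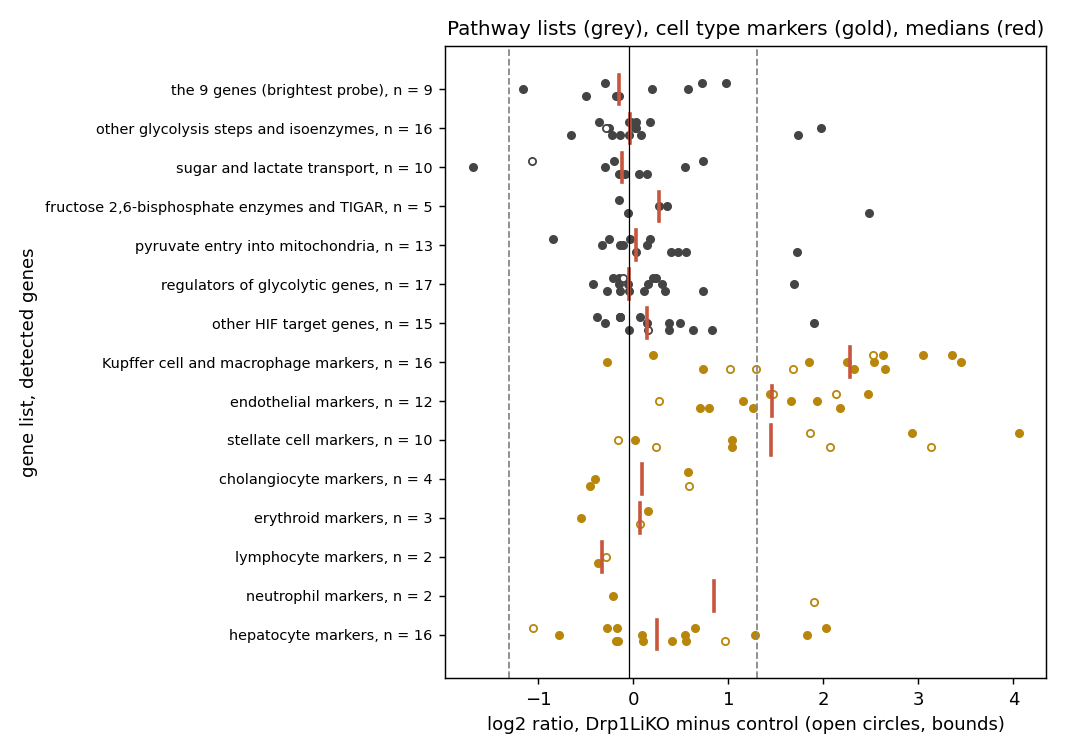
Log2 ratio (*Drp1*LiKO minus control) of each detected gene, by list, with pathway lists in grey, cell type markers in gold and the median of each list in red. Open circles are bounds, the solid line is the median of all genes and dashed lines are a Z score of 2 or -2. Pathway lists have medians from -0.15 to 0.27, and the macrophage, endothelial and stellate lists from 1.45 to 2.28.

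How far each member moved with the processing is plotted by gene. The ratio of *Hk2* was 0.58 to 0.62, that of *Slc2a1* 0.72 to 0.79, that of *Pfkp* 0.98 to 1.18 and that of *Ldhb* -1.17 to -0.79 under 10 alternatives. Filters, the floor and outlier spots could not move these ratios, since their probes were well above background on both arrays and had no outliers. The RefSeq rule took the same probes for them, and the median over probes took the only probe of *Hk2* and of *Slc2a1*. The narrow ranges therefore rest on the remaining alternatives. Sign changes were limited to *Hk1*, by the RefSeq probe, and *Ldha*, which reached 0.02. The ratio of the *Hk1* NM_001146100 probe was 1.24 to 1.57 over 9 settings, and its Z score reached 2 in 10 of 11 (1.65 to 4.32).

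**Figure D5:**
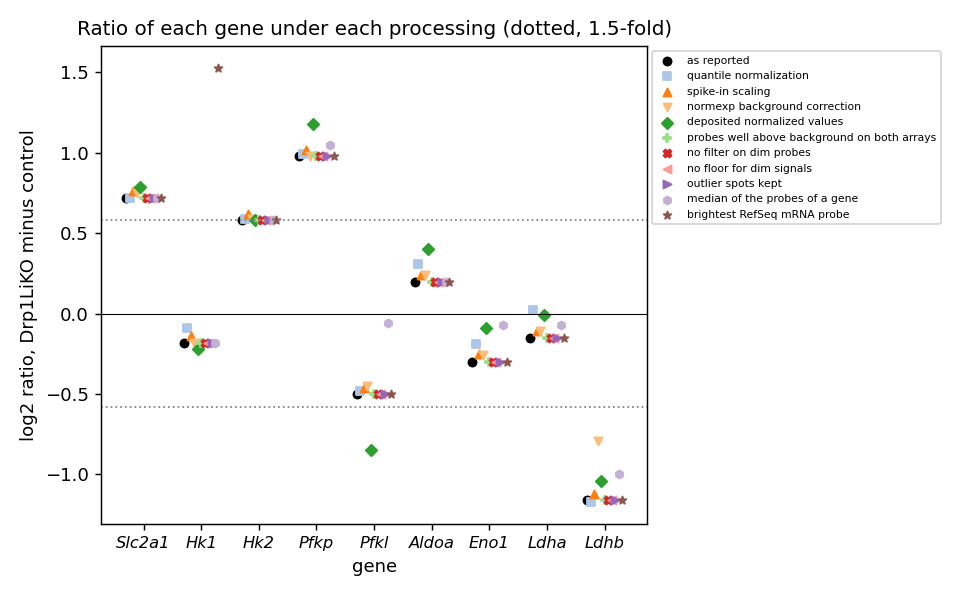
Log2 ratio (*Drp1*LiKO minus control) of each member as reported (black) and under 10 other ways of processing the same arrays (colored symbols), with dotted lines at 1.5-fold. The points of *Hk2*, *Slc2a1* and *Pfkp* stay together above 0, those of *Ldhb* stay below the lower dotted line, and *Hk1* splits into -0.18 and 1.53 by its probe.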

How the data were processed

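Total RNA of each culture was amplified, labeled with Cy3 and hybridized to a 60-mer Agilent mouse array. Scanner output was deposited by the authors for each array, from which the processed signal was used, a linear intensity after background subtraction by Feature Extraction (version 9.5.1.1 in the submitters' processing notes, 10.7.1.1 in the file header). They also deposited a table of normalized intensities by a method not given in the sources used here, with a median of 19.1 in both columns. Across detected probes the rank correlation with the array was 1.000 for its control column and 0.988 for its *Drp1*LiKO column, so it served as an alternative only.

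After control and outlier spots were removed, spots of 1 probe were averaged as log2 signals and the array's own 75th percentile was taken off. Background was clearly exceeded by 48.2% of 56605 probes on the control array and 52.1% on the *Drp1*LiKO array, and the 30275 that were so on at least 1 array were kept. Signals of kept probes below the lowest signal well above background (18.2 on the control array, 15.0 on the other) were raised to it, and ratios of such probes are bounds. A gene was its brightest probe. The Z score used the mean and SD over kept probes. The noise of a spot is the median SD of the 5 probes nearest in signal among those printed 10 times. No member spot was marked as an outlier. Coordinates of probes are those of the files, in mm9, and promoters are those of RefSeq on GRCm38.p6.

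The members and gene lists were chosen with earlier results of these data known. Some genes of the glycolysis list, and the pairs of forms that need them, are not reported here. Genes named are the members with all probes, *Dnm1l*, the partner forms, the genes of each pathway list past a Z score of 2 or, with none, its highest and lowest, and the brightest 2 of each marker list in control cells. Genes of the lists named as not well above background, or as such on 1 array only, and further genes marked as named after their values were seen, lie outside this rule and were chosen after their values were seen. No gene was named for a pattern like that of a member, since 2 arrays give each gene 1 ratio. The alternatives were quantile normalization, spike-in scaling (7 probes), normexp background correction with an offset of 50, the deposited normalized intensities, 2 other filters, no floor, outlier spots kept, the median over all probes of a gene, a robust Z score and a Z score in 20 bins of signal. The choice of RefSeq mRNA probes, and the alternatives for differences between forms and for list medians, were added after the data were seen. The steps were tested on simulated data. Python 3.11.15 (numpy 2.4.6, pandas 2.3.3, scipy 1.17.1, matplotlib 3.10.9) was used, with limma 3.58.1 in R 4.3.3 for normexp.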

Additional observations from a re-analysis of the deposited data

How the results depend on the processing

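The count of members called higher at a Z score of 2, 0 by brightest probes, was 1 with normexp background correction, with no filter on dim probes and with a Z score within bins of signal (*Pfkp* each time), 1 with RefSeq mRNA probes (*Hk1*) and 2 with a robust Z score (*Pfkp*, *Slc2a1*). The count called lower, 0, was 1 (*Ldhb*) with a robust Z score and with probes well above background on both arrays. At the same log2 ratio of 0.98, *Pfkp* had a Z score of 1.51 as reported and 2.80 with the robust Z score. The same Z score thus stands for a smaller difference there. Shares over all genes were taken only for brightest probes and RefSeq mRNA probes. The counts under other alternatives therefore have no such share beside them and are not results about the members. Members higher by over 1.5-fold, 2, were 3 with quantile normalization, spike-in scaling and normexp, which each added *Hk2*. They were also 3 with RefSeq mRNA probes, which added *Hk1*. Members lower by over 1.5-fold, 1, were 2 with the deposited values, which added *Pfkl*. The median of the members, -0.15, was 0.02 with quantile normalization, -0.01 with the deposited values and 0.20 with RefSeq mRNA probes. With no filter on dim probes the median of all genes was -0.47.

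*Pfkp* minus *Pfkl*, 1.48, was 2.03 with the deposited values and 1.11 with the median of probes. *Eno1* minus *Eno3*, 0.36, was 0.75 with the deposited values and 0.59 with the median of probes. *Ldhb* minus *Ldha*, -1.01, was -0.67 with normexp. *Slc2a1* minus *Slc2a2* was 0.66 to 0.91. Except where the construction of an alternative shows it, the cause was not tested. The macrophage, endothelial and stellate medians stayed above 0 in all 10 alternatives (1.64 to 2.43, 0.84 to 1.79 and 0.65 to 2.75).

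Ratios at signals under 64, where the SD between spots was 0.22 on the control and 0.29 on the other array, are the least precise. Such signals include those of *Slc2a2*, the dim probes of *Hk1*, *Pfkp* and *Ldhb*, and on 1 array the brightest probes of *Hk3* and *Slc2a5*. No paired analysis was possible because each genotype has 1 array.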

Other observations

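*Hkdc1* lies next to *Hk1* in the coordinates of the files, with the probe that rose at chr10:61845922-61845981 and the nearest *Hk1* probe at chr10:61837713-61837772 of mm9. The latter (ENSMUST00000134447) and an upstream *Hkdc1* probe (ENSMUST00000159579, 3.96 and 3.25) were not well above background on either array.

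The lactate carriers were measured with the sugar carriers. *Slc16a1*, the broad lactate carrier, gave 4022 in control and 4105 in *Drp1*LiKO cells (log2 ratio -0.15). *Slc16a3*, which exports lactate from glycolytic cells, gave 1210 and 1998 (log2 ratio 0.54). *Slc16a7* had probes that disagreed, at 80.3 and 79.1 for the brightest (log2 ratio -0.20). Of its pair of detected probes on the RefSeq mRNA NM_011391, which lie side by side, one gave 28.0 and 185 (log2 ratio 2.54) and the other 26.1 and 34.9 (log2 ratio 0.24). At the last step of glycolysis, *Pkm*, the pyruvate kinase of most tissues, gave 48472 and 56004 (log2 ratio 0.03), and *Pklr*, that of liver, 272 and 303 (log2 ratio -0.02). These genes were named after their values were seen.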
